A study of Mus musculus with 30 samples.

Results

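Fmo2, Galnt15 and Sh3rf2 are 3 of the 47643 gene lines in a table of transcript levels from the tibialis anterior of male C57BL/6J mice, the shin muscle that lifts the foot. They were chosen from the measured values, because each leaned upward in all 3 models of muscle wasting, so their levels in those models are given as a description, without tests. The 30 libraries form 8 groups in 4 experiments, and each wasting model has a control of its own. Old mice of 24 months (n = 3) were set beside young mice of 6 months (n = 3). Muscle after dexamethasone, a synthetic glucocorticoid hormone, was set beside its control (n = 4 each), with no age, dose or duration in the labels. Muscle of mice with LLC cancer was set beside its control (n = 4 each), where LLC is not spelled out in the labels and commonly means a transplantable mouse tumour, Lewis lung carcinoma. The remaining experiment set siRNAs against Cyr61, a secreted matrix protein, beside NT siRNAs (n = 4 each), and it is the only one the choice of genes did not use. The labels call the samples biological replicates but name no animals, so p-values measure the spread between these samples.

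Fmo2 is a flavin-containing monooxygenase of the endoplasmic reticulum. Enzymes of this family use NADPH and oxygen to oxidise nitrogen and sulphur atoms of drugs and other foreign compounds, and Fmo2 is best known from the lung. Galnt15 belongs to the Golgi enzymes that start mucin-type O-glycans by placing N-acetylgalactosamine on serine or threonine, after which other transferases extend the sugar chain. Sh3rf2 is a RING finger protein with SH3 domains. It binds protein phosphatase 1 and is known to lower the level of its relative Sh3rf1, a scaffold of the JNK stress kinase pathway.

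In the mm10 genome with GENCODE M21, Fmo2 (ENSMUSG00000040170.13) lies on the minus strand at chr1:162874317-162898726. Galnt15 (ENSMUSG00000021903.11) lies on the plus strand at chr14:32028989-32062197. Both are annotated as protein coding. Promoter sequence, from 250 bases before a start site to 50 after it, was available from RefSeq (GRCm38.p6) for 2 of the 3 genes. The windows are shown because Fmo2 and Galnt15 followed each other closely between libraries, as described further on. Fmo2 has a pair of annotated start sites. The sequences run 5′ to 3′ on the strand of the gene, and capitals mark matches to the first 4 motifs listed after them.
Fmo2, chr1:162898709-162899008, minus strand: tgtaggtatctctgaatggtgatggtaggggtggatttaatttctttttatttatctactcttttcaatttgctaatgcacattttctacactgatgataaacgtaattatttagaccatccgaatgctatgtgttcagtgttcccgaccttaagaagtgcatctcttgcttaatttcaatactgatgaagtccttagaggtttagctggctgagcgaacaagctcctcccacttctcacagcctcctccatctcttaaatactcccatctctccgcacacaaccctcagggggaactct
Fmo2, chr1:162898444-162898743, minus strand: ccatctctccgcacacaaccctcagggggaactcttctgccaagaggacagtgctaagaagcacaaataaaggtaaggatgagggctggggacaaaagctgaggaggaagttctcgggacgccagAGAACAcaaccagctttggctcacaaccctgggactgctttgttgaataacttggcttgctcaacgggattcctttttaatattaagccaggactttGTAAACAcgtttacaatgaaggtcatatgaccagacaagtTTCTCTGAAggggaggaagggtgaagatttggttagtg
Galnt15, chr14:32028853-32029152, plus strand: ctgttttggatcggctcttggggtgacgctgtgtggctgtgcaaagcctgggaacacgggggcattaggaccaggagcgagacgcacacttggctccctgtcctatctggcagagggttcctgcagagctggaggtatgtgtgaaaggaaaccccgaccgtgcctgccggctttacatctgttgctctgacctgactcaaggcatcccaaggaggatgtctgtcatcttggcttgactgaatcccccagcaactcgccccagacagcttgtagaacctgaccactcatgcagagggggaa

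Motifs were searched on both strands. They were AGAACA, the core of glucocorticoid receptor sites, the same core followed after any 3 bases by its reverse complement, GTAAACA for FOXO factors, TTCNNNGAA for STAT factors, and CANNTG, the E-box, which is not capitalised. Every match to the second motif also holds a match to the first. The downstream Fmo2 window held AGAACA at position −125, GTAAACA at position −28, TTCTCTGAA at position 12 and the E-box CATATG at position −5, counted from 0 at its start site. The upstream Fmo2 window held none of the 5 motifs. The Galnt15 window held 2 E-boxes, CACTTG at position −164 and CATCTG at position −75, and no match to the other motifs. Of 32851 promoter windows of the same length in the table, 19.0% held AGAACA, 0.00913% the mirrored pair, 3.65% GTAAACA, 8.30% TTCNNNGAA and 72.3% an E-box. Thus Fmo2 and Galnt15 shared no motif of this set other than the E-box, which most windows hold. The share of G and C was 41.3% and 47.7% in the Fmo2 windows and 57.3% in that of Galnt15, where the median window had 52.7%. A match is a run of letters and shows no binding.

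Levels are TPM, the share of a gene among all transcripts of a library, scaled for gene length. Reads recovered from the TPM steps numbered 339 to 1996 per library for Fmo2, 516 to 2589 for Galnt15 and 368 to 2966 for Sh3rf2, where the last may be low by a whole factor because its counted length had to be inferred. These reads carry no molecular identifiers. The myofibre markers, 10 genes such as Acta1 and Ckm, summed to 78039 to 154422 TPM per library, and no library had one of them at 0. Genes encoded in the mitochondria took 34.0 to 41.5% of TPM after dexamethasone against 46.3 to 50.7% in its control, and 60.4% in the library LLC 3 against 46.5 to 49.3% in the other LLC libraries. TPM sums to a constant, so a rise in some genes lowers the share of others. The median of all genes tested was itself shifted, for a cause that was not tested. The shift was 0.14 on the log2 scale in old muscle, 0.33 after dexamethasone, −0.05 under LLC and 0.07 with Cyr61 siRNA. Differences are therefore also given after median-of-ratios scaling, which sets the typical gene equal between libraries. In whole muscle, more cells of a type and more RNA per cell cannot be told apart. Cyr61 itself was at 32.9, 52.8, 45.8 and 25.5 TPM with its siRNA and at 57.0, 64.6, 67.8 and 36.8 TPM with NT siRNA. Its level was lower on average (log2 difference −0.53), but the groups overlapped (exact permutation test, two-sided, p = 0.143).

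Fmo2 was lowest in young muscle and in the controls of the LLC and dexamethasone experiments, and highest under LLC. It stood at 4.55, 4.37 and 3.44 TPM in young muscle and at 4.60, 6.91 and 7.56 TPM in old muscle. The lowest old library exceeded the highest young library by a narrow margin, while the other old libraries stood well above. The level was 4.58, 6.30, 5.29 and 5.70 TPM in the dexamethasone control and 8.08, 12.2, 9.32 and 10.7 TPM after dexamethasone, without overlap. It was 4.37, 4.44, 4.47 and 3.63 TPM in the LLC control against 13.9, 13.2, 9.34 and 14.2 TPM under LLC. Here the groups stood far apart, and even LLC 3, the lowest tumour library, lay above every library of the young, LLC control and dexamethasone control groups.

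The ratio of mean Fmo2 levels was 1.54 in old muscle, 1.84 after dexamethasone and 2.99 under LLC. On the log2(TPM + 1) scale the differences were 0.51 (SE 0.18), 0.77 (SE 0.14) and 1.37 (SE 0.14). After median-of-ratios scaling they were 0.38 (SE 0.11), 0.45 (SE 0.09) and 1.42 (SE 0.09), and the groups remained apart in each model. Scaling thus took the dexamethasone difference close to that in old muscle and left the LLC difference about where it was. Without LLC 3 the LLC difference was 1.50.

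Galnt15 followed a similar course at slightly higher levels. It was at 5.84, 6.07 and 4.65 TPM in young muscle and at 7.67, 10.6 and 9.25 TPM in old muscle, and the groups did not overlap. It was at 6.68, 9.75, 7.51 and 8.15 TPM in the dexamethasone control and at 8.69, 15.5, 10.1 and 14.2 TPM after dexamethasone. The groups overlapped there, since the lowest treated library fell below the second control library. It was at 5.61, 7.14, 5.83 and 4.88 TPM in the LLC control and at 12.5, 18.4, 9.99 and 12.2 TPM under LLC, again without overlap. LLC 3 was the lowest of its group as deposited, but not after scaling (13.1 TPM against 12.2 TPM in LLC 4).

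The ratio of mean Galnt15 levels was 1.66 in old muscle, 1.51 after dexamethasone and 2.26 under LLC. The log2 differences were 0.64 (SE 0.16), 0.52 (SE 0.18) and 1.03 (SE 0.17). After scaling they were 0.50 (SE 0.11), 0.18 (SE 0.13) and 1.08 (SE 0.13). The dexamethasone difference in Galnt15 was thus lower after scaling, and in 14 of 16 pairs of a treated and a control library the treated one was still higher. The LLC difference was 1.15 without LLC 3, and the dexamethasone difference was 0.39 without the library dexamethasone 2.

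Sh3rf2 (ENSMUSG00000057719.11), a protein-coding gene on the plus strand at chr18:42053667-42158960 (mm10, GENCODE M21), varied widely between libraries. It was at 5.58, 10.3 and 8.94 TPM in young muscle and at 10.3, 13.1 and 14.7 TPM in old muscle, where the lowest old library lay just under the highest young one. It was at 3.94, 7.73, 4.87 and 7.25 TPM in the dexamethasone control and at 8.02, 30.025, 8.08 and 12.6 TPM after dexamethasone. The groups did not overlap, but the library dexamethasone 2 stood far above the rest and the lowest treated library only just cleared the highest control. It was at 2.86, 3.97, 5.09 and 4.57 TPM in the LLC control and at 12.3, 11.3, 4.85 and 9.97 TPM under LLC. LLC 3 lay inside the range of the control, and the other tumour libraries lay above it.

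The ratio of mean Sh3rf2 levels was 1.53 in old muscle, 2.47 after dexamethasone and 2.33 under LLC. The log2 differences were 0.58 (SE 0.19), 1.01 (SE 0.36) and 1.00 (SE 0.24), and after scaling 0.44 (SE 0.22), 0.68 (SE 0.31) and 1.04 (SE 0.21). Scaling removed the overlap in old muscle and under LLC and brought one in after dexamethasone. Without dexamethasone 2 the dexamethasone difference was 0.62, and without LLC 3 the LLC difference was 1.26 with no overlap. Without the library young 1 the difference in old muscle was 0.35.

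**Figure D1:**
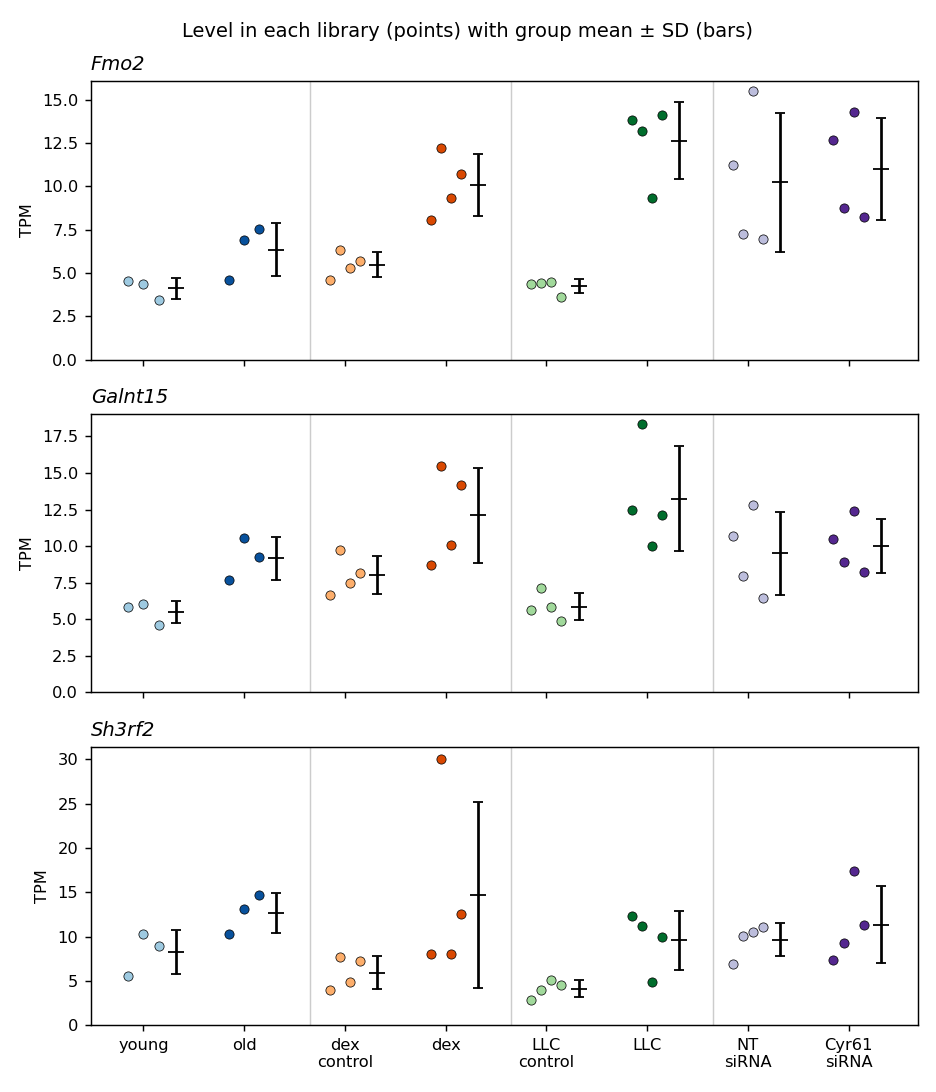
TPM of Fmo2, Galnt15 and Sh3rf2 in each library (points), with the group mean and SD beside them (bars), for the 8 groups; vertical lines part the 4 experiments, and each axis starts at 0. The Fmo2 points under LLC run from 9.34 to 14.2 TPM against 3.63 to 4.47 TPM in the control, and a single Sh3rf2 point after dexamethasone reaches 30.025 TPM.

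The background differed widely between these contrasts in TPM. Every treated library lay above every control library in 15.5% of genes tested in old muscle, in 34.3% after dexamethasone and in 1.5% under LLC. This held for 2 of the 3 chosen genes in each contrast: Fmo2 and Galnt15 in old muscle and under LLC, and Fmo2 and Sh3rf2 after dexamethasone. After scaling the background was 11.8%, 8.2% and 6.87%. The mean was higher in all 3 models for 32.4% of 10343 genes, which is what the choice of Fmo2, Galnt15 and Sh3rf2 required. Fmo2 was 1 of 8 genes (0.0773%) in which every library of all 3 models lay above every library of its own control. Since the genes were chosen for these contrasts, nothing is read from these counts.

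**Figure D2:**
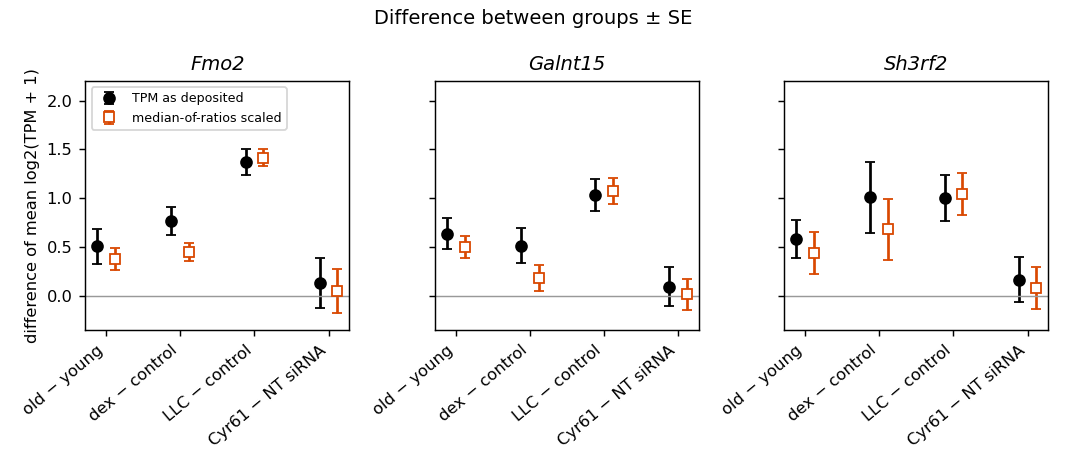
Difference of mean log2(TPM + 1) between each group and its control for the 3 genes, with the SE of the limma fit as bars; filled circles use TPM as deposited and open squares TPM after median-of-ratios scaling. For Fmo2 the dexamethasone difference drops from 0.77 to 0.45 with scaling, while the LLC difference is 1.37 before and 1.42 after it.

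Marker sums of several cell types differed in the dexamethasone and LLC contrasts, in which Fmo2, Galnt15 and Sh3rf2 were higher. In old muscle the sums overlapped those of young muscle, and no marker was called. After dexamethasone 9 of 10 macrophage markers rose, or 4 after scaling, beside 35.9% and 4.39% of all genes. The macrophage sum was 1122 to 2713 TPM against 326 to 558 TPM. Sums also stood apart for 8 satellite cell markers (128 to 210.3 TPM against 78.8 to 111 TPM), 8 markers of smooth muscle and pericytes (390.4 to 535 against 279.5 to 358 TPM), 8 tendon markers (145 to 222 against 77.3 to 131 TPM) and 11 markers of fibro-adipogenic progenitors (1064 to 1229 against 868 to 1054 TPM). In the last list the median log2 difference was 0.22, beside 0.33 for all genes. After scaling 0 of its 11 markers were called higher and 2 lower. In the other lists 2 of 7 satellite cell, 2 of 7 tendon and 0 of 8 smooth muscle markers tested were then called higher, and 1 tendon marker lower. In the same contrast 1 of 10 endothelial markers fell, or 6 after scaling, beside 1.51% and 4.74% of all genes. The endothelial sum was 187 to 283 TPM against 239 to 276 TPM. Under LLC the sum of 10 myofibre markers was 78039 to 116819 TPM, wholly below the 117660 to 125450 TPM of its control, and none was called. The sum of 11 markers of fibro-adipogenic progenitors was 297 to 805 TPM against 625 to 737 TPM. That of 8 tendon markers was 41.7 to 113 TPM against 89.5 to 127 TPM. Among fibro-adipogenic and tendon markers 1 of each list was called lower, beside 0.886% of all genes. With siRNA, the 8 adipocyte markers summed to 2794 to 4640 TPM for Cyr61 and 1899 to 3184 TPM for NT, and none was called. Within groups, Fmo2 had r = 0.684 with the endothelial sum and 0.487 with the myofibre sum over 30 libraries, Galnt15 0.648 and 0.539, and Sh3rf2 0.393 and 0.653. With the satellite cell sum r was 0.538 for Fmo2, 0.482 for Galnt15 and 0.567 for Sh3rf2. The median gene had r = 0.417, 0.422 and 0.334 with the 3 genes. Every other marker sum had a lower r than the median gene, except that of smooth muscle and pericytes with Fmo2 (0.455). With the macrophage sum r was 0.194 for Fmo2, 0.252 for Galnt15 and 0.174 for Sh3rf2. With the fibro-adipogenic sum it was −0.033, 0.181 and 0.186. In no group was a marker gene at 0 in every library. The part of these cell types in the levels of Fmo2, Galnt15 and Sh3rf2 was not tested.

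Cyr61 siRNA gave the test that the choice of genes did not touch, and no difference was detected in Fmo2, Galnt15 or Sh3rf2. Fmo2 was at 12.7, 8.78, 14.3 and 8.24 TPM with Cyr61 siRNA and at 11.2, 7.25, 15.5 and 6.97 TPM with NT siRNA. The groups overlapped almost wholly, with libraries 1 and 3 of both groups high and libraries 2 and 4 low. Galnt15 was at 10.5, 8.94, 12.4 and 8.22 TPM against 10.7, 7.95, 12.8 and 6.49 TPM, with the same libraries high. Sh3rf2 was at 7.39, 9.24, 17.4 and 11.3 TPM against 6.93, 10.1, 10.5 and 11.1 TPM. Only the library Cyr61 siRNA 3 stood apart there, and library 1 was the lowest in both groups.

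The log2 difference in Fmo2 was 0.13 (SE 0.26, 95% interval −0.45 to 0.70), which spans ratios from 0.734 to 1.63. The limma adjusted p was 0.999, and the exact permutation test gave p = 0.657 (two-sided, 70 arrangements, smallest possible p = 0.0286). In Galnt15 the difference was 0.09 (SE 0.20, interval −0.35 to 0.54, ratios from 0.783 to 1.46; limma adjusted p = 0.999, exact permutation p = 0.657). In Sh3rf2 it was 0.17 (SE 0.23, interval −0.36 to 0.69, ratios from 0.780 to 1.61; limma adjusted p = 0.999, exact permutation p = 0.629). Adjusted over these 3 tests by Benjamini-Hochberg, each exact permutation p was 0.657. With 4 libraries a group, changes within these intervals are not excluded. limma called 0 of 11006 genes higher and 0 lower in this contrast (109 at an unadjusted p under 0.05), a background of 0%. Every Cyr61 library lay above every NT library in 0.954% of genes tested, and in 0 of these 3.

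With TPM as deposited, the order of the group means set the siRNA muscles among the wasting models. Fmo2 had means of 10.2 ± 4.01 TPM (SD, n = 4) with NT siRNA and 11.0 ± 2.95 TPM (SD, n = 4) with Cyr61 siRNA. These lay between 10.1 ± 1.79 TPM (SD, n = 4) after dexamethasone and 12.6 ± 2.23 TPM (SD, n = 4) under LLC. The lowest NT siRNA library, at 6.97 TPM, exceeded every library of the young, dexamethasone control and LLC control groups, whose highest was 6.30 TPM. No test was made across experiments, because the siRNA muscles differ from the other controls in experiment and in treatment, and these cannot be told apart. With TPM as deposited, of the neighbours in this order only the LLC control and the dexamethasone control, and old muscle and dexamethasone, did not overlap in Fmo2. After scaling the Fmo2 means were 7.38 TPM after dexamethasone, 10.8 and 11.0 TPM with NT and Cyr61 siRNA, and 13.6 TPM under LLC.

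Galnt15 ran in order of mean from young muscle (5.52 ± 0.764 TPM, SD, n = 3) through the LLC control, the dexamethasone control, old muscle, NT siRNA, Cyr61 siRNA and dexamethasone to LLC (13.2 ± 3.58 TPM, SD, n = 4). Sh3rf2 took a different order, from the LLC control (4.12 ± 0.957 TPM, SD, n = 4) through the dexamethasone control, young muscle, LLC, NT siRNA, Cyr61 siRNA and old muscle to dexamethasone (14.7 ± 10.5 TPM, SD, n = 4). All neighbours in both orders, which use TPM as deposited, overlapped. After scaling, Galnt15 after dexamethasone (8.78 TPM) stood below old muscle (9.46 TPM) and both siRNA groups (10.0 TPM each). Sh3rf2 was then highest in old muscle (13.0 TPM). Its mean after dexamethasone (10.3 TPM) then stood below both siRNA groups (10.4 TPM with NT and 11.2 TPM with Cyr61). With TPM as deposited, young muscle was therefore the lowest group for Fmo2 and Galnt15 but not for Sh3rf2. In Sh3rf2, young muscle had about as much transcript as muscle under LLC (8.28 ± 2.44 against 9.59 ± 3.30 TPM). After scaling the LLC control was the lowest group for each of these genes.

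Fmo2 and Galnt15 also followed each other among libraries of 1 group, which the choice of genes did not use. After the mean of each group was taken off, the correlation of their log2(TPM + 1) values was r = 0.840 over 30 libraries. By experiment it was 0.845 in the old and young libraries, 0.972 in the dexamethasone experiment, 0.592 in the LLC experiment and 0.967 in the siRNA experiment. Points share the library and its scaling, and the median gene had r = 0.417 with Fmo2. After median-of-ratios scaling the median gene was at 0.00 and Fmo2 with Galnt15 at 0.725, but at 0.518 without the siRNA experiment and at 0.243 within the LLC experiment. With TPM as deposited Galnt15 had rank 5 among 12616 genes for Fmo2, and Fmo2 had rank 4 for Galnt15, and after scaling the ranks were 3 and 2. Over all 30 libraries Sh3rf2 had r = 0.404 with Fmo2 and 0.488 with Galnt15, and 0.123 and 0.235 after scaling. By experiment its r with Fmo2 was 0.280 in the old and young libraries, 0.906 with dexamethasone, 0.725 with LLC and 0.054 with siRNA, and with Galnt15 it was 0.204, 0.875, 0.495 and 0.052. Without the siRNA experiment Sh3rf2 had r = 0.674 with Fmo2 and 0.657 with Galnt15, and 0.470 and 0.466 after scaling, not far from the 0.518 of Fmo2 with Galnt15.

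**Figure D3:**
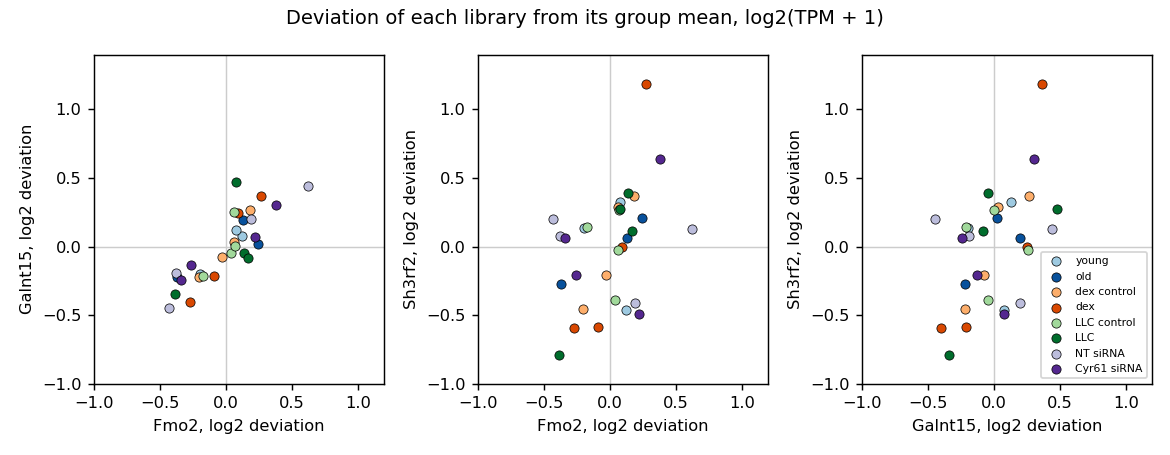
Deviation of each library from the mean of its group, in log2(TPM + 1), for the 3 pairs of genes; each point is 1 of 30 libraries, coloured by group. Points of Fmo2 against Galnt15 lie along a rising line (r = 0.840), those of Sh3rf2 scatter widely (r = 0.404 and 0.488), and the highest Sh3rf2 point is a dexamethasone library.

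The genes most like each of the 3 were ranked by the correlation of log2(TPM + 1) centred on each experiment, over 30 libraries and 12617 genes, a measure that includes the contrasts used to choose them. For Fmo2 they were Galnt15 (r = 0.936), Osmr, the receptor subunit for oncostatin M (0.890), Ifitm1, an interferon-induced membrane protein (0.877), Ablim1, an actin-binding LIM protein (0.875), and Glul, glutamine synthetase (0.855). For Galnt15 they were Fmo2, Ablim1 (0.901), Osmr (0.879), Cds2, which makes CDP-diacylglycerol (0.859), and Clk4, a kinase of splicing factors (0.850). Osmr and Ablim1 were thus near both. For Sh3rf2 they were Srpr, a subunit of the signal recognition particle receptor (0.859), Paip2b, an inhibitor of translation (0.854), Dnm3, a dynamin (0.853), Zcchc24 (0.838) and Slc7a6, an amino acid transporter (0.831), none of which was among the 5 of Fmo2 or of Galnt15. Fmo2 ranked 200 and Galnt15 148 among the genes most like Sh3rf2.

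Because the ranking includes these contrasts, the neighbours lean the same way by choice, and their levels in TPM are given as a description. Osmr had a mean of 1.32 TPM in the LLC control and 3.48 TPM under LLC, and 2.22 and 3.02 TPM in the dexamethasone control and after dexamethasone. Glul had means of 68.5 and 213.7 TPM in the LLC contrast, and 198 and 196 TPM with NT and Cyr61 siRNA. Glul in the siRNA muscles thus lay nearer to its level under LLC than to that of the LLC control, as Fmo2 did, while Osmr, at 1.41 and 1.63 TPM there, did not. Nor did Ifitm1, at 2.01 and 2.27 TPM there, with 1.10 TPM in the LLC control and 4.51 TPM under LLC. Ablim1 (6.58 and 7.35 TPM) and Galnt15 (9.50 and 10.0 TPM) lay between their levels in the LLC control (5.54 and 5.86 TPM) and under LLC (8.69 and 13.2 TPM).

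Relatives of Fmo2 were expressed at a range of levels, and some were too low to test. Fmo1 was the most abundant of those described with a mean of 7.80 TPM over 30 libraries, followed by Fmo5 (2.52 TPM) and Fmo4 (0.243 TPM). Fmo6 reached at most 0.120 TPM, and Fmo9 was listed at 0 throughout. Fmo1 and Fmo5 were tested, and none was called in any of the 4 contrasts with TPM as deposited. Fmo1 was at 8.54 ± 1.07 TPM under LLC against 6.52 ± 0.656 TPM in the control (n = 4 each), a log2 difference of 0.34 with a limma adjusted p of 0.221. After scaling the difference in Fmo1 was 0.39 and passed (limma adjusted p = 0.0308), against 1.42 for Fmo2 on the same scale. Transcript of Fmo2 was below that of Fmo1 in the LLC control and above it under LLC.

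Of 18 relatives of Galnt15, Galnt1 (24.9 TPM), Galnt2 (13.0 TPM) and Galnt11 (7.42 TPM) had the highest means over 30 libraries. No relative was called in old muscle (7 tested), under LLC (9 tested) or with Cyr61 siRNA (8 tested). After dexamethasone 5 of 11 rose, read against 35.9% of all genes called higher and 1.51% called lower. They included Galnt6 (1.21 ± 0.401 to 3.16 ± 0.872 TPM, n = 4 each, limma adjusted p = 0.00636), Galnt5 (0.872 ± 0.312 to 2.28 ± 0.731 TPM, limma adjusted p = 0.00880) and Galnt7 (2.13 ± 0.0941 to 3.98 ± 0.901 TPM, limma adjusted p = 0.00724). Galnt6 and Galnt5 passed the filter on low values only through the treated libraries. Their lowest control libraries were at 0.656 and 0.569 TPM. The filter thus favoured a rise in both, and nothing is read from their p-values. After scaling 1 was called higher, Galnt6 (limma adjusted p = 0.0395), and 1 lower, where 4.39% and 4.74% of all genes were called. Under LLC, where Galnt15 was highest, Galnt6 was at 0.303 ± 0.133 TPM against 0.382 ± 0.293 TPM in the control. Galnt2 was at 6.71 ± 2.08 TPM under LLC against 9.36 ± 4.83 TPM, with 16.6 TPM in the library LLC control 1.

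The enzymes that extend the O-glycan, such as C1galt1 and the sialyltransferase St3gal1, gave a like picture. After dexamethasone 5 of 9 rose, beside 35.9% of all genes, among them St3gal1 (7.42 ± 0.864 to 12.4 ± 3.67 TPM, limma adjusted p = 0.0327), Gcnt1, a branching enzyme (0.734 ± 0.241 to 1.55 ± 0.471 TPM, limma adjusted p = 0.0218), and St6galnac4, another sialyltransferase (5.46 ± 0.498 to 8.50 ± 1.58 TPM, limma adjusted p = 0.0150). Gcnt1, with control libraries at 0.456 to 1.03 TPM, also passed the filter only through the treated libraries, and nothing is read from its p-value. After scaling none of the 9 was called higher and 1 was called lower, beside 4.39% and 4.74% of all genes. The median of the list was 0.38 on the log2 scale, beside 0.33 for all genes. None of the 8 tested was called in old muscle, under LLC or with Cyr61 siRNA with TPM as deposited. After scaling 1 was called higher under LLC, beside 1.69% of all genes.

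Sh3rf1, the scaffold that Sh3rf2 is known to lower, was at 0.599 ± 0.232 TPM in young and 0.860 ± 0.262 TPM in old muscle (n = 3 each). It rose after dexamethasone from 1.24 ± 0.239 to 2.81 ± 0.568 TPM (n = 4 each, log2 difference 0.76, limma adjusted p = 0.00483), also after scaling (0.52, limma adjusted p = 0.0109). Under LLC it was at 0.612 ± 0.0982 TPM against 0.721 ± 0.170 TPM and lay below the filter on low values. Sh3rf1 and Sh3rf2 were thus both higher after dexamethasone, and Sh3rf2 alone stood higher under LLC. Sh3rf3 stayed at 0.586 TPM or less.

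The JNK module holds the kinases, scaffolds and targets of that pathway. After dexamethasone 2 of 10 rose, a smaller share than the 35.9% of all genes. They were Jun, a transcription factor of the AP-1 family (37.3 ± 3.77 to 66.5 ± 12.2 TPM, limma adjusted p = 0.00336), and Rac1, a small GTPase (62.2 ± 4.65 to 84.1 ± 10.4 TPM, limma adjusted p = 0.0171). Jun also passed after scaling (limma adjusted p = 0.0291) and Rac1 did not (limma adjusted p = 0.718). Of the phosphatase 1 subunits and the kinase Pak4, known partners of Sh3rf2, 3 of 4 rose beside the same 35.9%, with Ppp1ca at 179 ± 8.62 to 260.2 ± 6.41 TPM (limma adjusted p = 0.00236), and 0 after scaling. No gene of either list was called in the other 3 contrasts.

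Enzymes of oxidation and reduction of foreign compounds, the wider group of Fmo2, showed calls in both the dexamethasone and the LLC contrast. After dexamethasone 9 of 19 rose and 3 of them passed after scaling, beside 35.9% and 4.39% of all genes. These were Aldh1a1, a retinal dehydrogenase (103 ± 7.11 to 276 ± 58.8 TPM, limma adjusted p = 0.000541), Ephx1, an epoxide hydrolase (14.9 ± 1.83 to 29.2 ± 0.825 TPM, limma adjusted p = 0.000868), and Por, which passes electrons to cytochromes P450 (7.71 ± 0.591 to 14.9 ± 3.98 TPM, limma adjusted p = 0.00575). Under LLC 1 of 17 fell, Cbr2, a carbonyl reductase (32.6 ± 4.50 to 12.7 ± 5.26 TPM, log2 difference −1.35, limma adjusted p = 0.0169), against 0.295% of all genes called higher and 0.886% called lower. After scaling 2 of the list were called higher and 1 lower under LLC, beside 1.69% and 1.57% of all genes. None was called in old muscle (18 tested), where 0.152% of genes were called higher and 0.019% lower.

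**Figure D4:**
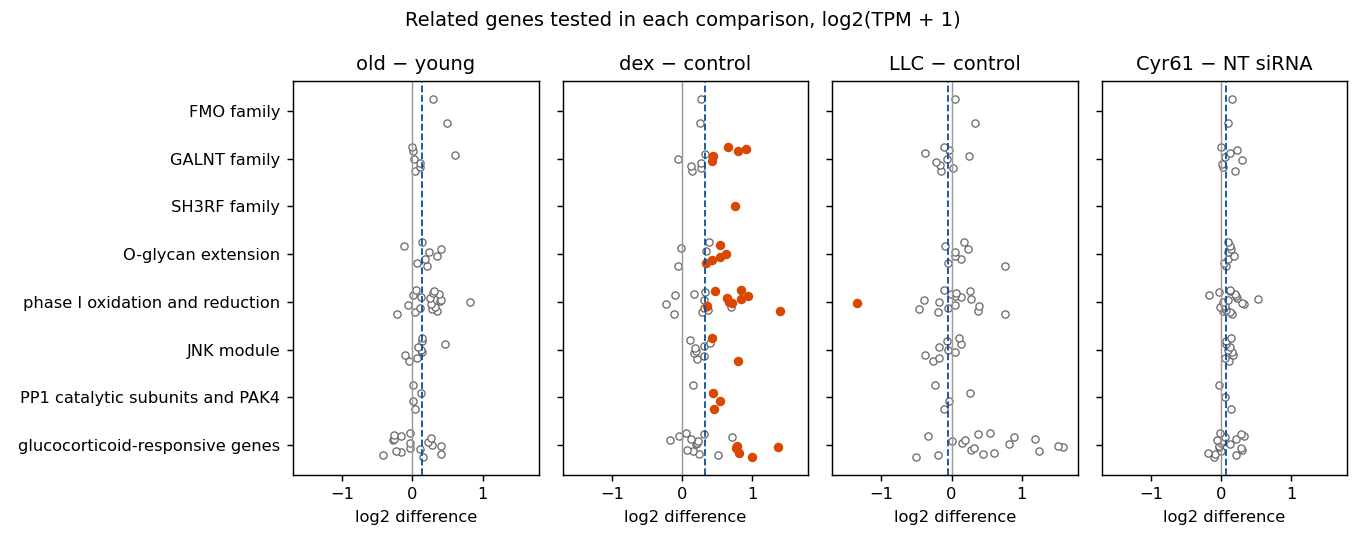
Log2 difference between each group and its control for the related genes that passed the filter on low values, by list; filled points passed limma at an adjusted p under 0.05, open points did not, and the dashed line is the median of all genes tested. After dexamethasone 30 of 74 genes are filled around a shifted median of 0.33, under LLC only Cbr2 of 67 is, and in old muscle and with Cyr61 siRNA none is.

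Over all 8 related lists, which hold 100 genes of the table, dexamethasone gave 30 higher and 0 lower of 74 tested, and 7 higher and 2 lower after scaling. The 30 include Galnt5, Galnt6 and Gcnt1, which passed the filter only through the treated libraries. Over all genes 35.9% were called higher and 1.51% lower, and 4.39% and 4.74% after scaling. LLC gave 0 higher and 1 lower of 67, and 9 higher and 1 lower after scaling, where 1.69% and 1.57% of all genes were called. Old muscle gave 0 of 65 with and without scaling, and Cyr61 siRNA 0 of 67. The LLC call on Cbr2 was lost without the library LLC control 4 or LLC 1, and 10 genes were called higher without LLC 3. After dexamethasone the count of higher calls was 16 without control 1, 16 without control 2 and 52 without dexamethasone 1.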

How the data were processed

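RNA was sequenced from 30 tibialis anterior samples with a stranded mRNA kit, per the labels. Values are TPM as the authors deposited them, 1 column per sample, with mm10 as the build per the submitters' processing notes. They rest on an aligner, a counting tool, an annotation and a treatment of overlapping genes, each not given in the sources used here. For 14690 of 23193 genes above 0, TPM times the summed exon length (GENCODE M21) gave whole reads in every library within 0.05 read, summing to between 7798374 and 19494862 reads per library, a part of the depth.

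Samples were grouped by their labels. limma 3.58.1 (R 4.3.3) with a variance trend was fitted for each pair of groups to log2(TPM + 1), a pseudocount of 1, over all genes that reached 1 TPM in as many libraries as there are in the smaller group. A gene could thus pass through 1 group alone. Fold changes on this scale understate low genes. Benjamini-Hochberg adjusted p under 0.05 (two-sided) was called. Fits were tested on simulated data. Python 3.11.15 with numpy 2.4.6, pandas 2.3.3, scipy 1.17.1 and matplotlib 3.10.9 did the rest.

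The 3 genes and all lists were chosen with earlier results of these data known. Named genes were the 3, up to 3 called genes per list, direction and comparison with the largest difference, detected FMO and SH3RF relatives, the 3 most abundant GALNT relatives and the 5 genes most like each; numbered Gm, Rik, clone-named genes and pseudogenes were passed over. A gene that the rule took is not reported here. Map2k7 of the JNK list was not analysed here, and Galnt17 was read under its older symbol. Alternatives were other pseudocounts and filters, rescaling without mitochondrial genes, median-of-ratios scaling, all groups in 1 fit, a replicate block and leaving out each library.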

Additional observations from a re-analysis of the deposited data

Results flagged for a closer look

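Within groups of 4 libraries, 16 of 228 combinations of gene and group held a library far from the others by Dixon's test at the 95% level, and chance alone marks about 1 in 20. Of the 3 genes only Fmo2 had one, in the LLC control, where library 4 was at 3.63 TPM and the others at 4.37 to 4.47 TPM. That library stood out in 3 other genes as well, at 10.9 TPM for Clk4, 24.2 TPM for Zcchc24 and 2.89 TPM for Fmo5, and LLC control 1 did so at 16.6 TPM for Galnt2 and 45.9 TPM for Jun. LLC 3 was at 11.0 TPM for Ephx1, with the others at 14.9 to 15.4 TPM. In the dexamethasone experiment, control 3 was at 2.41 TPM for Osmr, control 1 at 54.1 TPM for Glul, and treated library 2, the one with the highest Sh3rf2, at 84.6 TPM for Jun.

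With NT siRNA, library 4 was at 46.6 TPM for Paip2b, and library 3 at 1.36 TPM for Galnt6 and 0.402 TPM for Gcnt1. With Cyr61 siRNA, library 3, the one with the highest Sh3rf2 of its group, was at 6.28 TPM for St6galnac4 and 71.6 TPM for Rac1. Library 4 of that group was at 11.0 TPM for Fkbp5, where the others were at 32.3 to 36.6 TPM.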

How the results depend on the processing

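Fmo2, Galnt15 and Sh3rf2 stayed higher in each of the 3 wasting models under every alternative that gave a value, though Fmo2 in old muscle gave none with a filter of 5 TPM. After dexamethasone, median-of-ratios scaling lowered Fmo2 to 0.45 and Galnt15 to 0.18, with or without a replicate block, and rescaling without mitochondrial genes lowered Fmo2 to 0.56. The latter raised Fmo2 under LLC to 1.59. With Cyr61 siRNA the differences ran from −0.014 to 0.34 for Fmo2, −0.055 to 0.24 for Galnt15 and −0.045 to 0.33 for Sh3rf2 when 1 library was left out. The sign turned without NT siRNA 4 for Fmo2 (−0.014) and Galnt15 (−0.055), and without Cyr61 siRNA 3 for Galnt15 (−0.0058) and Sh3rf2 (−0.045). Over the alternatives the limma adjusted p of these genes ran from 0.808 to 1.00.

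Related genes called higher in old muscle numbered 1 with the replicate block and 0 to 2 with 1 library left out. After dexamethasone they numbered 7 with scaling, 11 without mitochondrial genes, 10 with block and scaling together, and 16 to 52 with 1 library left out. Those called lower numbered 1 without a filter, 2 with scaling and 5 with block and scaling. Under LLC, higher calls numbered 3 with a filter of 5 TPM or all groups in 1 fit, 9 with scaling, 10 without mitochondrial genes, 8 with the block, 7 with block and scaling, and 0 to 10 with 1 library left out. Lower calls were 0 without a filter and 0 to 1 with 1 library left out. Of the 5 genes most like Fmo2, 3 stayed among the 5 without the dexamethasone experiment; for Sh3rf2, 3 stayed with scaling and 1 without that experiment. Causes were not tested.

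Replicate numbers are shared between groups, but same-numbered libraries did not deviate together throughout: correlations ran from 0.0937 to 0.498 in the siRNA experiment, 0.0267 to 0.498 with dexamethasone, 0.0408 to 0.374 with LLC and 0.0442 to 0.135 with age. Not every library was closest to its own number. With the block, the siRNA difference of Fmo2 was 0.13 with an SE of 0.09 in place of 0.26 (limma adjusted p = 0.808). Cyr61 was lower with its siRNA in each of the 4 same-numbered comparisons, and its test took no account of the numbers. The block with scaling was chosen after seeing the data.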

Other observations

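Fkbp5 is a co-chaperone of the glucocorticoid receptor and a common marker of its activity. It stood higher after dexamethasone and in most LLC libraries than in the controls of these experiments. The siRNA muscles can be set only beside controls of other experiments, where experiment and treatment cannot be told apart. Fkbp5 was at 5.34, 6.36, 6.06 and 6.50 TPM in the dexamethasone control and at 9.90, 28.7, 16.7 and 18.4 TPM after dexamethasone (limma adjusted p = 0.00457, and 0.00677 after scaling). It was at 8.08, 5.97, 8.03 and 5.70 TPM in the LLC control and at 32.5, 35.7, 7.30 and 29.8 TPM under LLC. With TPM as deposited LLC 3 lay within the control range, and it had the lowest Fmo2, Galnt15 and Sh3rf2 of its group. The difference in Fkbp5 between LLC and its control did not pass with TPM as deposited (limma adjusted p = 0.0799) and passed after scaling (limma adjusted p = 0.0417). Fmo2 (9.34 TPM) and Galnt15 (9.99 TPM) as deposited lay above their controls in LLC 3, at most 4.47 and 7.14 TPM, and Sh3rf2 did not. Mitochondrial genes took 60.4% of TPM in LLC 3. After scaling it was still lowest of its group in Fmo2 (12.3 TPM, next 12.9 TPM in LLC 2) and Sh3rf2 (6.38 TPM, next 9.99 TPM in LLC 4). In Galnt15 it was not (13.1 TPM against 12.2 TPM in LLC 4). Scaled Sh3rf2 in LLC 3 lay above its highest control (5.62 TPM). In the siRNA muscles Fkbp5 was at 41.0, 35.2, 29.3 and 11.9 TPM with NT and at 35.6, 36.6, 32.3 and 11.0 TPM with Cyr61, so that library 4 was low in both groups, as it was for Fmo2 and Galnt15. Library 2 was high for Fkbp5 in both groups and low for Fmo2 and Galnt15. In old muscle Fkbp5 was at 9.33, 7.18 and 6.08 TPM against 8.17, 7.93 and 6.78 TPM in young muscle, with no lean upward, unlike Fmo2. A link of Fmo2, Galnt15 or Sh3rf2 to glucocorticoid activity was not tested.

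Of 18 genes known to respond to glucocorticoids, 5 rose after dexamethasone with TPM as deposited, a smaller share than the 35.9% of all genes. Among them were Angptl4, a secreted inhibitor of lipoprotein lipase (2.53 ± 0.269 to 6.24 ± 1.99 TPM, limma adjusted p = 0.00699), and Cebpd, a transcription factor (7.92 ± 1.09 to 15.9 ± 7.67 TPM, limma adjusted p = 0.0465). After scaling 1 was called higher, Fkbp5, beside 4.39% of all genes. Under LLC 0 of 18 were called with TPM as deposited and 5 were called higher after scaling, Fkbp5 and Glul among them, beside 1.69% of all genes. In old muscle (17 tested) and with Cyr61 siRNA (18 tested) none was called. Within groups, the median correlation of the 18 genes was 0.563 with Fmo2, 0.576 with Galnt15 and 0.347 with Sh3rf2 over 30 libraries, beside 0.417, 0.422 and 0.334 for all genes. After scaling it was 0.307, 0.365 and 0.121, beside 0.005, −0.014 and −0.008 for all genes. Then 6 of the 18 had r over 0.5 with Fmo2, 1 with Galnt15 and 0 with Sh3rf2. The share of all genes with r over 0.5 was not counted, so nothing is read from these counts. The points share library and depth.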
